A study of Rattus norvegicus with 10 samples.

Results

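In rat chondrosarcoma cells (RCS cells), 6162 of 50834 acetylated regions (12.1%) carried no called H3K4 methylation. The regions were chosen by the peak calls alone: they are the H3K27ac peaks in the authors' list that have not 1 base in common with any peak of the H3K4me1 list or of the H3K4me3 list. They are called H3K4-unmarked peaks here, and the remaining 44672 H3K27ac peaks are called H3K4-marked peaks. Of the marked peaks, 24991 met H3K4me1 only, 3575 met H3K4me3 only and 16106 met both. The word unmarked refers to the absence of a called peak in 1 library and not to a measured absence of the modification. Because the H3K27ac, H3K4me1 and H3K4me3 lists chose the regions, everything those lists hold (number, width, score and distance) is given as a description without a test. The SOX9, SOX6 and H3K9me3 lists played no part in the choice.

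The study used chromatin immunoprecipitation with sequencing (ChIP-seq) to map the transcription factors SOX9 and SOX6 and 4 histone modifications in a single cell line, RCS, derived from a rat chondrosarcoma. Each of the 6 antibodies has 1 library, and 4 further libraries are inputs sequenced without an antibody, 1 for each SOX factor, 1 for H3K27ac and 1 for the methylation marks. The labels name no treatment, genotype or time for any library, so all comparisons are between sets of regions within the same cells. A single library per antibody leaves no replicate error, and no p-value is given. The 95% intervals printed are Wilson intervals for shares, Newcombe intervals for differences of shares and exact Poisson intervals for rates. They cover counting error alone. Peaks near each other are not independent, so the intervals are too narrow as a guide to what another library would give. The input libraries held 36873004 to 131858579 reads, of which 53.4% to 53.5% were aligned, and read depths of the immunoprecipitated libraries were not used here.

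Acetylation of lysine 27 on histone H3 is found at active promoters and active enhancers. At most such places lysine 4 of the same histone is methylated as well, with monomethylation typical of enhancers and trimethylation typical of promoters, while trimethylation of lysine 9 is the modification of constitutive heterochromatin and silenced repeats. SOX9 is required for the chondrocyte fate, and SOX6, a second member of the same family, works beside it at enhancers of cartilage matrix genes.

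The H3K4-unmarked peaks were narrow and had low scores. Their median width was 631.5 bp (quartiles 572 to 812 bp, from 234 to 6140 bp), against 1370 bp for H3K4-marked peaks. Among marked peaks the medians were 1033 bp with H3K4me1 only, 1057 bp with H3K4me3 only and 2008 bp with both. The unmarked peaks made up 12.1% of the list by number and, covering 4.65 Mb of 82.3 Mb, 5.65% of its length.

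The score is the value the authors deposited for each peak, and no scale for it is given in the sources used here. In the H3K27ac list it runs from 50.04 to 3233.1, with a median of 331.6. The median score of unmarked peaks was 77.9 (quartiles 60.1 to 127), against 475 for marked peaks. H3K4me1-only peaks had a median of 202, H3K4me3-only peaks 473 and peaks with both 2485. Below the list median lay 5826 unmarked peaks (94.5%) and 43.9% of marked peaks. A score of 3100 or more was held by 18.9% of all H3K27ac peaks, by 21.5% of the marked peaks and by 10 unmarked peaks (0.162%).

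**Figure D1:**
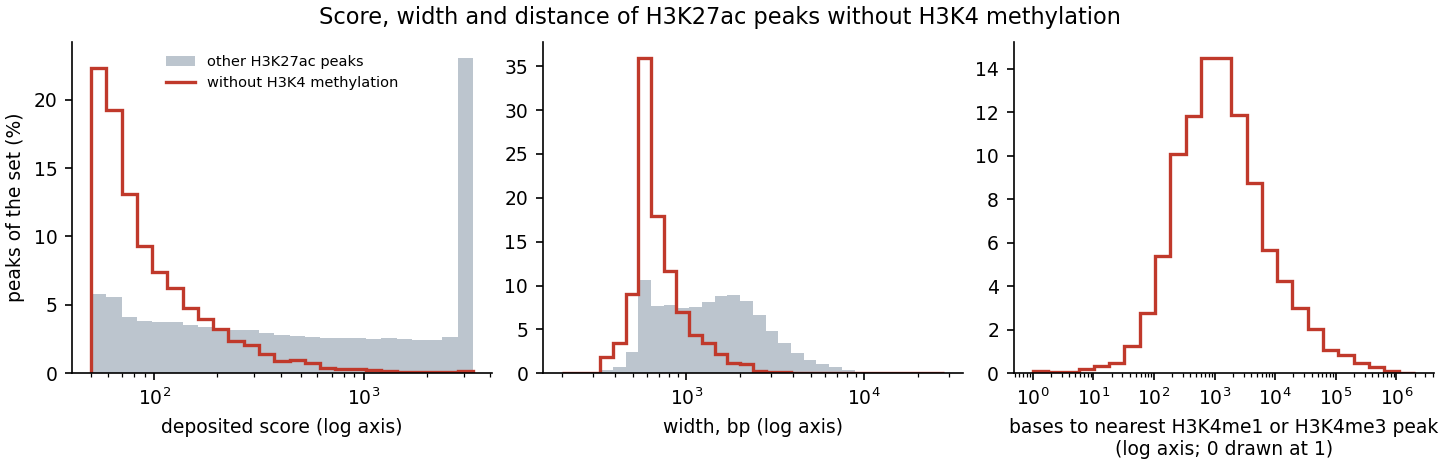
Distribution of the deposited score, the width in bp and the distance in bases to the nearest H3K4me1 or H3K4me3 peak, each on a log axis, as a percentage of the peaks of each set. The 6162 H3K27ac peaks without H3K4 methylation (red line) have median scores of 77.9 and median widths of 631.5 bp, below the 475 and 1370 bp of the other H3K27ac peaks (grey), and their median distance to H3K4 methylation is 1175.5 bases.

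Most unmarked peaks lay close to H3K4 methylation without touching it. The nearest H3K4me1 peak was a median of 1232 bp away (quartiles 438 to 3850 bp) and within 1 kb for 44.5% of them. H3K4me3 was much farther, at a median of 19050 bp, with 4.72% within 1 kb and 59.5% beyond 12500 bp. Taking whichever modification was nearer, the median distance was 1175.5 bp, 2813 peaks (45.7%) lay within 1 kb and 684 (11.1%) beyond 12500 bp. The nearer modification was H3K4me1 for 5693 peaks (92.4%) and H3K4me3 for 469, and 3 peaks abutted a methylated peak with 0 bases between.

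The unmarked peaks were also close to other acetylation. A median of 652.5 bp separated them from the next H3K27ac peak, against 2529.5 bp for marked peaks. Among marked peaks the median was 883 bp with H3K4me1 only, 13231 bp with H3K4me3 only and 6090 bp with both. The H3K4me1-only peaks thus came near the unmarked ones. Of the unmarked peaks, 5458 (88.6%) had another H3K27ac peak within 12500 bp. For 4527 (73.5%) the next peak on at least 1 side within that distance was H3K4-marked, and for 1504 (24.4%) it was marked on both sides. For 1774 (28.8%) the next H3K27ac peak was itself unmarked.

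At the edge of the rule, peaks on either side of it had like widths, scores and overlaps. The 312 unmarked peaks with at most 100 bp to a methylated peak had a median width of 618 bp and a median score of 79.8, and 4 of them met SOX9, 10 SOX6 and 41 H3K9me3 (13.1%). Just outside, the 185 marked peaks that shared at most 100 bp with each list they met had a median width of 606 bp and a median score of 66.8, and 2 met SOX9, 6 SOX6 and 23 H3K9me3 (12.4%). No test is made of these values.

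SOX9 and SOX6 were rarely called on the H3K4-unmarked peaks. SOX9 peaks met 140 of them, 2.27% (1.93% to 2.68%), whereas 20.7% of all H3K27ac peaks and 23.2% of the marked peaks (22.8% to 23.6%) met SOX9. SOX6 peaks met 164, 2.66% (2.29% to 3.09%), against a background of 24.0% of all H3K27ac peaks and 26.9% of the marked ones (26.5% to 27.4%). Both factors were thus far below the background of the acetylated regions as a whole.

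The difference to marked peaks was -20.95 percentage points for SOX9 (-21.5 to -20.4) and -24.28 points for SOX6 (-24.8 to -23.7), and each was negative on 21 of 21 chromosomes. Against H3K4me1-only peaks the differences were -18.3 and -21.1 points. They were smallest against the H3K4me3-only peaks, at -7.49 points for SOX9 (-8.56 to -6.48), lower on 20 of 21 chromosomes, and -10.4 points for SOX6 (-11.6 to -9.25), lower on 21 of 21. Each of these intervals lies below 0.

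Of the unmarked peaks, 72 (1.17%) met both factors, 68 (1.10%) met SOX9 without SOX6 and 92 (1.49%) met SOX6 without SOX9. Over all H3K27ac peaks 6.19% met SOX9 without SOX6 and 9.5% met SOX6 without SOX9. The background was 14.5% with both factors and 30.2% with at least 1 of them, and 232 unmarked peaks (3.77%) had at least 1. Among marked peaks 16.3% met both.

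Per unit of length the SOX factors were lower as well. SOX9 peak centres fell in unmarked peaks at 0.273 per 10 kb of their length (0.228 to 0.325) and in marked peaks at 1.48 per 10 kb (1.46 to 1.51). SOX6 centres fell at 0.340 (0.289 to 0.397) and 1.82 per 10 kb (1.79 to 1.85). By length, SOX9 peaks covered 1.08% of the unmarked and 10.6% of the marked peaks.

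H3K9me3 showed the opposite order. It met 1212 unmarked peaks, 19.7% (18.7% to 20.7%), against a background of 8.84% of all H3K27ac peaks and 7.35% of the marked ones (7.11% to 7.59%). The share was 9.21% with H3K4me1 only, 5.15% with H3K4me3 only and 4.94% with both, so every class of marked peaks was lower than the unmarked peaks. The difference to all marked peaks was 12.3 points (11.3 to 13.4) and was positive on 20 of 21 chromosomes, the exception being X.

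H3K9me3 was also higher per unit of length. Its peak centres fell at 2.10 per 10 kb in unmarked peaks (1.97 to 2.24) and at 0.383 per 10 kb in marked peaks (0.370 to 0.397). H3K9me3 peaks covered 17.6% of the length of unmarked peaks and 3.67% of that of marked peaks.

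**Figure D2:**
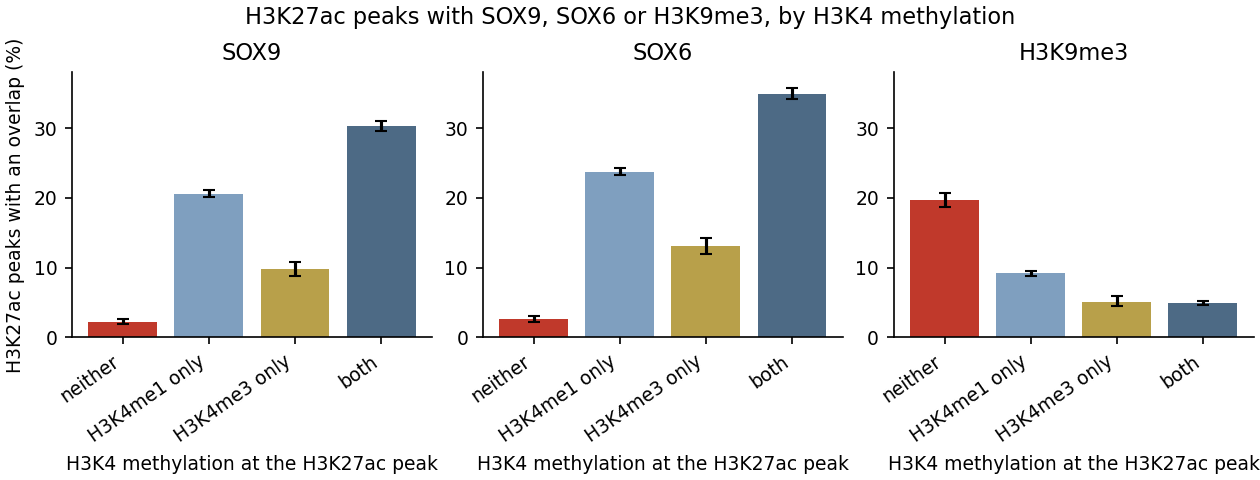
Percentage of H3K27ac peaks that meet a SOX9, SOX6 or H3K9me3 peak (y axis), by the H3K4 methylation at the H3K27ac peak (x axis); bars are shares and whiskers Wilson 95% intervals for counting error. Peaks with neither modification have the lowest SOX9 (2.27%) and SOX6 (2.66%) shares and the highest H3K9me3 share (19.7%) of the 4 classes.

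Since unmarked peaks scored low, overlaps were also set side by side within quintiles of the H3K27ac score, formed over the whole list. The lowest class (scores up to 82.2) held 54.2% of the unmarked peaks and the next (up to 191.7) another 32.1%. In the lowest class SOX9 met 0.839% of 3338 unmarked and 4.45% of marked peaks, a difference of -3.61 points (-4.19 to -3.02). In the next class the shares were 1.57% and 7.24%, and in the middle class (up to 644) 5.10% of 726 and 14.3%. SOX9 was therefore less frequent on unmarked peaks within each of these 3 classes, by fewer points than over all peaks.

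The upper classes did not keep that order. In the fourth class (scores of 644 to 2849.5), SOX9 met 34 of 106 unmarked peaks, 32.1% (24.0% to 41.5%), and 27.1% of marked peaks, a difference of 4.98 points whose interval (-3.19 to 14.4) includes 0. In the top class there were 12 unmarked peaks, of which 10 met SOX9 (83.3%, 55.2% to 95.3%), against 53.2% of marked peaks, a difference of 30.2 points (2.01 to 42.2). That class is small, and without it no class has a SOX9 share in unmarked peaks above that in marked peaks by more than counting error.

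SOX6 followed a like course, except that in the fourth class its share of unmarked peaks lay below that of marked peaks. Its shares of unmarked and marked peaks were 1.32% and 8.22% in the lowest score class, 1.87% and 11.5% in the next and 6.34% and 19.3% in the middle class. In the fourth they were 25.5% and 31.8%, with a difference of -6.30 points (-13.7 to 2.79), and in the top class 10 of 12 unmarked peaks met SOX6 against 54.3% of marked peaks, a difference of 29.1 points (0.921 to 41.1). Within unmarked peaks, overlap with either factor thus went up with each class of acetylation score, to 83.3% in the small top class.

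H3K9me3 kept its direction in every score class. It met 16.1%, 20.96%, 30.99%, 31.1% and 16.7% of unmarked peaks from the lowest class to the top class, the last being 2 of 12 (4.70% to 44.8%). The marked peaks stood at 6.34%, 8.196%, 7.04%, 6.70% and 8.25%. In the 4 lower classes the intervals of the difference lay above 0, and in the top class the difference of 8.42 points (-3.57 to 36.6) could not be told from 0 at 12 peaks.

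**Figure D3:**
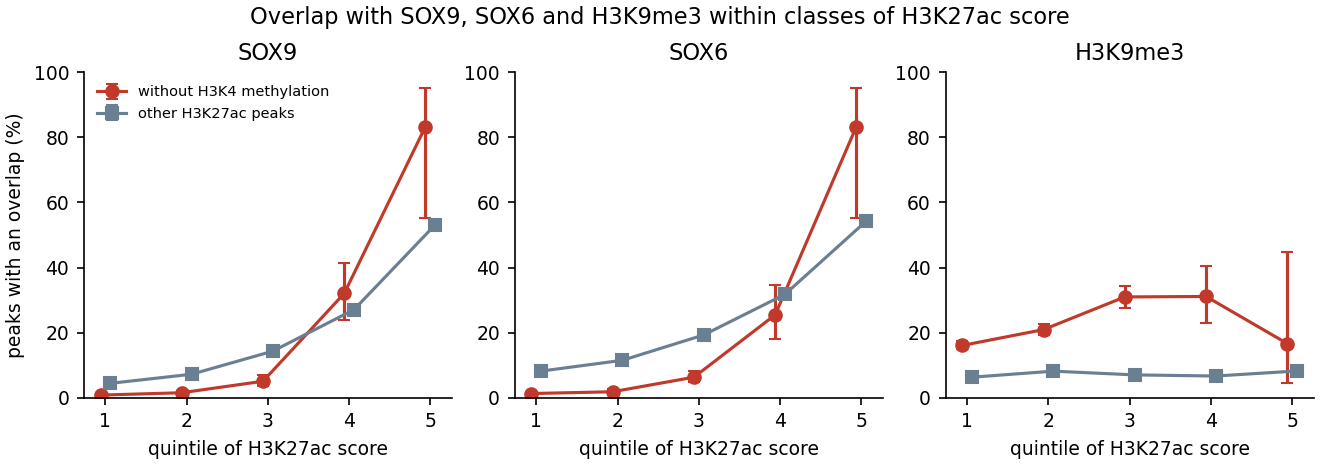
Percentage of H3K27ac peaks that meet SOX9, SOX6 or H3K9me3 (y axis) in each quintile of the deposited H3K27ac score (x axis, 1 lowest), for peaks without H3K4 methylation (red circles) and the other H3K27ac peaks (grey squares), with Wilson 95% intervals. SOX9 is lower on the peaks without H3K4 methylation in quintiles 1 to 3 and reaches 83.3% of their 12 peaks in quintile 5, while H3K9me3 is higher on them in quintiles 1 to 4.

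Classes of width gave a different picture for the SOX factors. In quintiles of width the SOX9 share of unmarked peaks was 1.70%, 1.70%, 3.94%, 8.45% and 12%, and of marked peaks 4.59%, 7.96%, 15.2%, 26.3% and 52.8%. The widest class held 50 unmarked peaks and a difference of -40.8 points (-47.3 to -29.0), so the wide unmarked peaks, unlike the 12 of the top score class, met SOX9 less often than marked peaks of their class. H3K9me3 met 15.6%, 21.2%, 27.6%, 37.6% and 44.0% of unmarked peaks over the same classes, and 7.95%, 7.31%, 6.04%, 5.05% and 10.4% of marked peaks.

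The 336 unmarked peaks above the list's median score had a median width of 1435 bp and a median score of 523. SOX9 met 64 of them (19.0%, 15.2% to 23.6%), SOX6 62 (18.5%) and both factors 44 (13.1%), and H3K9me3 met 117 (34.8%, 29.9% to 40.1%). The background over all H3K27ac peaks was 20.7%, 24.0%, 14.5% and 8.84%. Against marked peaks above the median score, the differences were -16.6 points for SOX9 (-20.4 to -12.0), -20.5 points for SOX6 (-24.3 to -15.9) and 27.4 points for H3K9me3 (22.5 to 32.6). H3K9me3 and a SOX factor together met 12 of the 336 (3.57%, 2.06% to 6.14%), against 2.34% of all H3K27ac peaks, which include those of low score. This joint share was not computed for marked peaks above the median score. The SOX9 share of the 336 varied little with distance to H3K4 methylation, being 18.9% of 175 within 1 kb, 19.4% of 98 between 1 kb and 12500 bp and 19.0% of 63 beyond. Their H3K9me3 share was 37.7% (30.9% to 45.1%) within 1 kb, 41.8% (32.6% to 51.7%) in the middle range and 15.9% (8.86% to 26.8%) beyond 12500 bp, where the interval lies below the other 2.

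The 10 unmarked peaks with the highest score all held 3100, and 9 of the 10 met both SOX9 and SOX6. Over all H3K27ac peaks 14.5% met both factors. Marked peaks of the top score class met SOX9 in 53.2% and SOX6 in 54.3% of cases, and their share with both factors was not computed. They were 620 to 4353 bp wide and lay 232 to 61474 bp from H3K4 methylation, 4 of them within 1 kb and 4 beyond 12500 bp. Positions are on rat genome build rn5, counted from 1, and the annotation of that build was not used here, so no gene, exon or intron is assigned.

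The 4 close to H3K4me1 sat among other acetylated peaks, in runs (H3K27ac peaks joined over gaps of at most 12500 bp) of 10 to 32 peaks. The peak at chr3:57740258-57742006 (1749 bp) lay 232 bp from H3K4me1, in a run of 15 H3K27ac peaks, and carried a SOX9 peak scored 1558 and a SOX6 peak scored 2174. The peak at chr12:43173310-43174378 (1069 bp) lay 234 bp from H3K4me1 and carried SOX9 at 1183 and SOX6 at 3052. At chr4:22707978-22708597, a peak of 620 bp lay 327 bp from H3K4me1, with SOX9 at 580 and SOX6 at 183. All 3 combined a high acetylation score with both factors close beside a methylated peak.

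Chromosome 12 held 2 further peaks with the same score and both factors, at unlike distances from H3K4 methylation. At chr12:38701326-38703456 (2131 bp), 5958 bp from H3K4me1, 2 SOX9 and 2 SOX6 peaks were called, the strongest scored 1639 and 1205. At chr12:40649819-40651205 (1387 bp), 706 bp from H3K4me1, 1 SOX9 peak (1385) and 2 SOX6 peaks (931 for the stronger) were called, within a run of 32 H3K27ac peaks. The peak at chr1:141857162-141857986 (825 bp) lay 1109 bp from H3K4me1 and met SOX9 (767) and SOX6 (796).

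A further 3 of the 10 were distant from H3K4 methylation. At chr17:77477154-77481506 (4353 bp, also among the 5 widest), the nearest methylated peak was 22553 bp away and the SOX peaks scored at most 168 for SOX9 and 196 for SOX6. At chr17:77634220-77636432 (2213 bp, 15116 bp away) they scored 342 and 76.9. At chrX:78254597-78257984 (3388 bp, 14929 bp away) they scored 468 and 60.8. SOX scores at all 3 were below those at the chromosome 1, 3 and 12 peaks, while the SOX6 score of 196 was above the 183 of the chromosome 4 peak.

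The tenth peak differed from the others. At chr13:47541830-47543998 (2169 bp), no SOX9 or SOX6 peak was called, 2 H3K9me3 peaks covered 95.02% of its length, the nearest H3K4 methylation was 61474 bp away and no other H3K27ac peak lay within 12500 bp. It thus combined the score of the SOX-bound peaks with near-complete H3K9me3 coverage.

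Of the 5 widest unmarked peaks, 4 lay within 1 kb of H3K4 methylation. The widest, at chr14:91816375-91822514 (6140 bp, score 1221), ended 3 bp short of H3K4me1 and had H3K9me3 over 13.0% of its length. The next, at chr1:141643013-141647673 (4661 bp, score 2563), lay 234 bp from H3K4me1 in a run of 66 H3K27ac peaks and had H3K9me3 over 10.6%. At chr1:191958297-191962132 (3836 bp, score 1652), in a run of 55, none of the SOX9, SOX6 and H3K9me3 lists had a peak. The fifth, chr4:9450407-9454090 (3684 bp, score 495), lay 558 bp from H3K4me1 and 758 bp from H3K4me3, with H3K9me3 over 44.0%. Of the 5 widest, only the chromosome 17 peak met a SOX factor.

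The 5 widest unmarked peaks with H3K9me3 met no SOX factor and lay 3 to 811 bp from H3K4me1. Besides the chromosome 14, 1 and 4 peaks above, they were chr2:202135665-202139320 (3656 bp, score 612, 37.5% under H3K9me3) and chr14:91854209-91857596 (3388 bp, score 3080, 46.6% under H3K9me3). None was covered by H3K9me3 over more than 46.6% of its length.

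The most isolated unmarked peaks had ordinary widths and scores for unmarked peaks: the 209 beyond 50 kb had medians of 642 bp and 89.0. The 5 farthest from H3K4 methylation lay 882819 to 1867077 bp from it, were 413 to 956 bp wide and scored 72.9 to 188. The farthest, chr15:69310221-69310850, met a SOX6 peak scored 58.4, and chr8:10101683-10102325, 1084931 bp away, met one scored 59.5, both close to the lowest score of the SOX6 list. The others, chr15:83160318-83161094, chrX:9260121-9261076 and chrX:125940910-125941322, met none of the SOX9, SOX6 and H3K9me3 lists.

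Distance to H3K4 methylation went with both kinds of overlap among the unmarked peaks. SOX9 met 2.41% of the 953 peaks within 250 bp, 2.20% of 1860 at 250 bp to 1 kb and 1.23% (0.841% to 1.797%) of 2113 at 1 to 5 kb. It then met 2.90% of 552 peaks at 5 kb to 12500 bp, 4.63% (3.08% to 6.91%) of 475 at 12500 bp to 50 kb and 5.74% (3.32% to 9.77%) of 209 beyond 50 kb. The lowest share was in the range of 1 to 5 kb, and its interval does not reach those of the 2 farthest classes.

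The SOX6 shares over the same classes were 3.25%, 2.26%, 1.33%, 4.17%, 5.89% and 5.74%. Beyond 50 kb the factors were seldom together: 12 peaks met SOX9, 12 met SOX6 and 1 met both. Even the farthest classes stayed below the background of 20.7% and 24.0%.

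H3K9me3 had its highest shares where the SOX factors had their lowest. It met 14.6% (12.49% to 17.0%) of unmarked peaks within 250 bp of H3K4 methylation, 18.5% at 250 bp to 1 kb and 23.1% (21.4% to 24.9%) at 1 to 5 kb. Farther out it met 22.1%, 17.9% and 15.8% (11.5% to 21.3%). Each class was above the background of 8.84%.

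**Figure D4:**
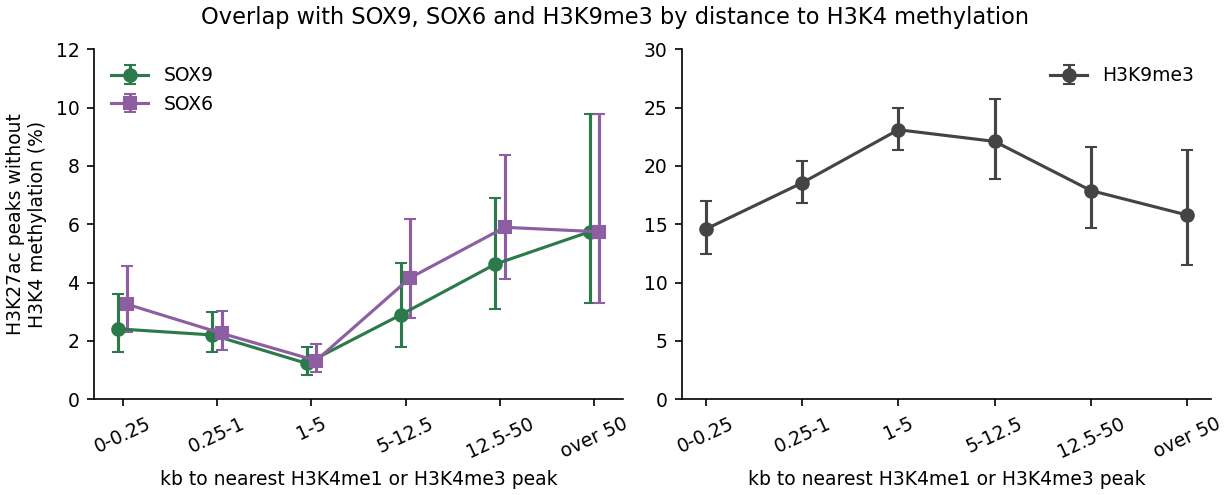
Percentage of the H3K27ac peaks without H3K4 methylation that meet SOX9 (green circles) and SOX6 (purple squares; left) or H3K9me3 (right) on the y axes, by distance in kb to the nearest H3K4me1 or H3K4me3 peak on the x axes, with Wilson 95% intervals. The SOX9 share is lowest at 1 to 5 kb (1.23%) and 5.74% beyond 50 kb, while H3K9me3 is highest at 1 to 5 kb (23.1%).

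Unmarked peaks that met both SOX factors differed in place and score from the rest. The 72 had a median score of 586 (quartiles 168 to 1178) and a median distance to H3K4 methylation of 563 bp, and 12 of them (16.7%, 9.80% to 26.9%) had an H3K4me1 peak within 1 kb on both sides. That share was 10.4% (7.59% to 14.1%) in the 336 unmarked peaks above the list's median score, which include 44 of the 72. The intervals overlap, and the part of score in the flanking was not tested. Among the 5930 without a SOX factor the median score was 76.8, the median distance 1170 bp and the share flanked on both sides 5.65% (5.09% to 6.27%). The distances of the 72 were also more spread out, with an upper quartile of 6027 bp against 3512 bp and 18.1% against 10.5% beyond 12500 bp. H3K9me3 met 5 of the 72 (6.94%, 3.003% to 15.3%), against 19.9% (18.9% to 20.9%) of those without a SOX factor.

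Peaks with a single SOX factor had lower scores and lay farther away. With SOX9 alone (68 peaks) the median score was 156 and the median distance 2568 bp, and with SOX6 alone (92 peaks) they were 127 and 2509.5 bp. Beyond 12500 bp lay 30.9% of the former and 29.3% of the latter, against 18.1% of those with both. H3K9me3 met 12 of the former (17.6%, 10.4% to 28.4%) and 15 of the latter (16.3%, 10.1% to 25.2%). Both intervals include the 19.7% of all unmarked peaks, and both overlap that of the peaks with both factors (3.003% to 15.3%). Flanking H3K4me1 within 1 kb on both sides was present at 5 of these 160 peaks (3.13%, 1.34% to 7.11%).

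The SOX peaks that met unmarked H3K27ac peaks were narrow but not low in score. In all, 145 SOX9 peaks (0.981% of the SOX9 list) did so, with a median width of 358 bp against 608 bp for those on marked peaks. Their median score was 108, which is close to the 110 of SOX9 peaks on marked H3K27ac peaks and above the 58.4 of SOX9 peaks on no H3K27ac peak. The 171 SOX6 peaks (0.884% of the list) had a median width of 324 bp against 516 bp, and median scores stood at 112 on unmarked peaks, 128 on marked peaks and 66.5 on no H3K27ac peak.

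The 1212 unmarked peaks with H3K9me3 had a median width of 704 bp and a median score of 91.7, against 621 bp and 75.6 for the 4950 without it. Of their summed length, 78.3% lay under H3K9me3 peaks. At least 1 SOX factor met 2.64% of them (1.88% to 3.70%), against 4.04% (3.53% to 4.63%) of those without H3K9me3. These intervals overlap slightly, which does not show that the shares are alike, and no interval of their difference was computed. The 1211 H3K9me3 peaks involved were 2.31% of the H3K9me3 list and had a median score of 130, above the 110 of H3K9me3 peaks on marked H3K27ac peaks and the 86.1 of those on none. The largest class of unmarked peaks, 4750 (77.1%), met none of the SOX9, SOX6 and H3K9me3 lists and had a median score of 74.3.

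Most unmarked peaks had a marked neighbour, which allows a comparison within the same stretch of the genome. For 5212 of them (84.6%) an H3K4-marked H3K27ac peak lay within 12500 bp, at a median gap of 881 bp. These were 4045 different neighbours, with H3K4me1 at 97.5% of the pairs and H3K4me3 at 24.1%. The neighbours were wider, at a median of 1756 bp against 632 bp, and the unmarked peak had the lower score in 91.5% of pairs.

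SOX9 met 2024 of the neighbours (38.8%, 37.5% to 40.2%) and 95 of the unmarked peaks beside them (1.82%, 1.49% to 2.22%). For SOX6 the counts were 2066 (39.6%) and 108 (2.07%). In 1990 pairs SOX9 met the neighbour and not the unmarked peak, and in 61 pairs the reverse. With each neighbour counted singly, 36.7% met SOX9, above the 23.2% of all marked peaks. The neighbours also had higher scores, with a median of 1059 over the pairs against 475 for all marked peaks. The part of score in this difference was not tested. Over all unmarked peaks the nearest SOX9 peak was a median of 6654 bp away, against 11475 bp for marked peaks, although few of them met one.

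For H3K9me3 the shares of unmarked peaks and their neighbours, counted by pair, lay close together, with overlapping intervals. It met 1045 unmarked peaks of these pairs (20.05%, 19.0% to 21.2%) and 1012 of their neighbours (19.4%, 18.4% to 20.5%), with 537 pairs in which both met it, 508 with the unmarked peak only and 475 with the neighbour only. With each of the 4045 neighbours counted singly, 17.55% met H3K9me3, which is below the interval of the unmarked peaks. Since the neighbours were wider, the shares by length differed, at 18.3% of the unmarked and 8.41% of the neighbouring length. Where the neighbour itself scored below the list median (1623 pairs with median widths of 619 and 837 bp), H3K9me3 met 19.6% (17.7% to 21.6%) and 16.1% (14.4% to 18.0%), and SOX9 met 1.66% (1.15% to 2.41%) and 4.19% (3.32% to 5.28%). In 150 of these pairs H3K9me3 met the unmarked peak only and in 94 the neighbour only. For SOX9 the counts were 23 and 64.

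Unmarked peaks were most frequent in long runs of acetylation. Joining H3K27ac peaks at most 12500 bp apart gave 22284 runs. Among H3K27ac peaks that stood alone 5.49% (5.11% to 5.90%) were unmarked, and the share was 9.92% in runs of 2 to 4 peaks, 15.7% in runs of 5 to 9 and 21.5% (20.7% to 22.3%) in runs of 10 or more. The longest runs held 34.2% of unmarked and 17.2% of marked peaks.

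Within those runs the unmarked peaks met SOX9 least and H3K9me3 most. SOX9 met 4.12% (2.88% to 5.85%) of solitary unmarked peaks, then 3.13%, 2.20% and 0.949% (0.615% to 1.46%) in the runs of growing length, whereas marked peaks stayed between 21.9% and 24.4%. SOX6 went from 5.11% to 1.42% in the unmarked peaks. H3K9me3 met 17.2%, 13.7%, 17.4% and 27.4% (25.5% to 29.3%) of unmarked peaks, and 4.67%, 5.29%, 7.86% and 15.5% (14.7% to 16.3%) of marked peaks. The H3K9me3 share was thus highest in the longest runs for marked and unmarked peaks alike.

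A smaller number of unmarked peaks had no marked peak in their run. There were 798 such runs, holding 910 peaks (14.8%), and 704 of them were a single peak while the largest had 4. SOX9 met 4.73% (3.53% to 6.30%) of these and SOX6 5.93% (4.58% to 7.66%), against 1.85% (1.52% to 2.25%) and 2.09% (1.74% to 2.52%) of the 5252 with marked peaks in their run. H3K9me3 met 17.4% and 20.1%.

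Joining only the unmarked peaks over 12500 bp gave 3902 groups, of which 2829 were a single peak (45.9% of the unmarked peaks) and 147 held 5 or more. Those 147 groups held 1033 unmarked peaks (16.8%), and 18 groups held 10 or more. The largest, chr1:191915670-192002485, had 22 unmarked and 12 marked H3K27ac peaks in 86.8 kb. H3K27ac covered 61.7% of that stretch, H3K4me1 24.3% and H3K4me3 none of it. No SOX factor met the 22 unmarked peaks, which had a median score of 129 against 1066 for the marked ones. H3K9me3 met 4 of the 22 unmarked and 2 of the 12 marked peaks.

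In the other 4 large groups the unmarked peaks also had lower median scores (85.03 to 119.5) than the marked ones (219.5 to 644), the smallest gap being on chromosome 9 (119.5 and 219.5). At chr4:231125147-231197132 there were 17 unmarked peaks, 7 with H3K9me3 and none with a SOX factor. Of the 10 marked peaks there, 4 met H3K9me3, 3 SOX9 and 4 SOX6. At chr12:40577449-40659140 there were 16 unmarked peaks, of which 8 met H3K9me3 and 1 met SOX9 and SOX6, this being the peak scored 3100 described above. Of the 10 marked peaks there, 2 met H3K9me3, 4 SOX9 and 3 SOX6. At chr17:1484974-1549223 there were 16 unmarked peaks, 3 of them with H3K9me3 and none with a SOX factor. Of the 11 marked peaks there, none met H3K9me3, 4 met SOX9 and 5 SOX6. At chr9:44548576-44608520 H3K9me3 covered 42.1% of the stretch and met 7 of the 14 unmarked and 6 of the 8 marked peaks.

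The H3K4 methylation next to unmarked peaks was mostly acetylated itself. Peaks chosen for lying within 1 kb of an H3K27ac peak are favoured to meet H3K27ac by that choice. The shares are therefore a description, and no test is made of them. Of the 3033 H3K4me1 peaks within 1 kb of an unmarked peak, 87.5% (86.3% to 88.6%) met H3K27ac, against 49.8% of H3K4me1 peaks farther away. They were wider, at 1169 against 939 bp. The 294 H3K4me3 peaks within 1 kb met H3K27ac in 98.3% of cases, against 85.2% of H3K4me3 peaks farther away. They were narrower than those farther away (1067 against 1516 bp) and lower in score (medians of 398 and 1728).

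The chromosomes differed in how many acetylated regions were unmarked and in what those met. The unmarked share of H3K27ac peaks ran from 9.34% on chromosome 20 to 19.0% on X, with 16.2% on chromosome 17, 15.8% on chromosome 16 and 14.9% on chromosome 9. H3K9me3 met between 1.70% of the unmarked peaks (X) and 31.9% (chromosome 9), and between 2.92% and 16.8% of marked peaks. The order of the chromosomes was broadly shared between unmarked and marked peaks, with 9, 7 and 16 highest in both.

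These 3 chromosomes also had the most input reads. Relative to the median chromosome, reads aligned without a mismatch per Mb in the inputs were 2.05 on chromosome 16, 2.03 on 9, 1.91 on 7 and 1.63 on 11, and 0.595 on X. Across the 21 chromosomes, which share the same libraries, the H3K9me3 share of unmarked peaks went with the input (Pearson's r 0.793, Spearman's rho 0.806), as did that of marked peaks (0.781 and 0.573), unmarked peaks per Mb (0.794 and 0.713) and marked peaks per Mb (0.617 and 0.605). The unmarked share of H3K27ac peaks did so less (0.204 and 0.218). Without chromosomes 7, 9, 11 and 16 the H3K9me3 share of unmarked peaks was 16.4% and its difference to marked peaks 10.8 points. Beyond this, the part of input depth in the result was not tested.

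**Figure D5:**
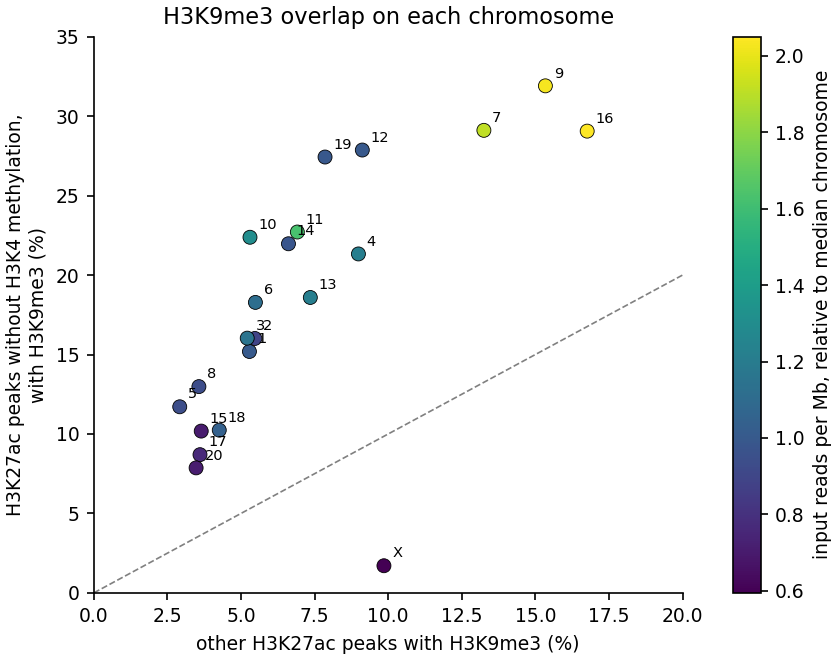
Percentage of H3K27ac peaks that meet H3K9me3 on each of 21 chromosomes, for the other H3K27ac peaks (x axis) and those without H3K4 methylation (y axis), with colour for input reads per Mb relative to the median chromosome and a dashed line where both are equal. All autosomes lie above the line, chromosomes 7, 9 and 16 highest, and X lies below it at 9.85% and 1.70%.

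The X chromosome stood apart in several respects. Its 176 unmarked peaks lay at a median of 11071 bp from H3K4 methylation, against 1147.5 bp on the autosomes, and 48.3% were beyond 12500 bp against 10.01%. Their median score was 115 against 77.3. The H3K4me1 list had 5.61 peaks per Mb there.

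The overlaps on X differed from those on the autosomes too. H3K9me3 met 3 of the 176 unmarked peaks (1.70%, 0.581% to 4.89%) and 74 of the 751 marked ones (9.85%, 7.92% to 12.2%), which is the reverse of the autosomes, where the shares were 20.2% and 7.30%. SOX9 met 14 unmarked peaks on X (7.95%, 4.80% to 12.9%) and 2.11% (1.77% to 2.50%) of those on the autosomes, while among marked peaks it met 14.2% on X and 23.4% on the autosomes. SOX6 met 6.82% (3.94% to 11.5%) and 2.54% (2.17% to 2.97%) of unmarked peaks. The low input and sparse H3K4me1 of X move with these values, and their part in them was not tested.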

How the data were processed

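The immunoprecipitations were deposited as 1 peak list per library, and the names of the peaks point to MACS, a program that calls peaks. The authors deposited a score for every peak. For the inputs they deposited the raw count of aligned reads on each chromosome, by strand and number of mismatches. CASAVA 1.8 and rn5 come from the submitters' processing notes. Unknown, because not given in the sources used here, are the aligner, the caller's version and settings, the input set against each list and the scale of the score, so scores were compared within a list only.

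Interval starts were read as counted from 0 and are printed counting from 1. Overlap meant at least 1 bp in common. Distances count the bases between peaks. No peak overlapped another of its own list. Score and width classes are quintiles of the H3K27ac list, and runs join peaks at most 12500 bp apart. The last peak end over the 6 lists stood in for chromosome length, and input values are means over the 4 inputs. Python 3.11.15, numpy 2.4.6, pandas 2.3.3, scipy 1.17.1 and matplotlib 3.10.9 were used. The interval arithmetic was tested on simulated data (1440 intervals, 6 quantities, 0 wrong).

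Named regions were the 10 unmarked peaks with the highest score, the 5 widest, the 5 farthest from H3K4 methylation, the 5 highest-scoring with both SOX factors (all among the 10), the 5 widest with H3K9me3 and the 5 groups with most unmarked peaks, with ties ordered by chromosome and start. The regions and lists were chosen with earlier results of these data known, and the classes of flanking H3K4me1, of peaks above the median score and of X against the autosomes were added after the values were seen. A genome or annotation of rn5 was not used here, so no sequence is shown and no gene assigned. The 8 alternatives changed the rule, the lists or the chromosomes.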

Additional observations from a re-analysis of the deposited data

How the results depend on the processing

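Under 8 alternatives 66 values were recomputed: 18 stayed within the 95% interval of the reported value, 48 moved outside it, and of the 24 that are differences 0 changed sign. Values follow in the order unmarked share of H3K27ac peaks, SOX9, SOX6 and H3K9me3 shares of unmarked peaks, the differences to marked peaks in points, median width and median distance to H3K4 methylation, where they moved. With a methylated peak within 1 kb counted as meeting (3349 peaks left), they were 6.59%, H3K9me3 21.7%, differences of -19.7, -22.8 and 13.8, and 3242 bp. With only the upper part by score of the H3K4 lists (14563 peaks) they were 28.7%, 5.64%, 7.01%, 14.2%, H3K9me3 difference 7.46, 699 bp and 3708 bp. With only H3K27ac peaks above the median score (336) they were 1.32%, 19.1%, 18.4%, 34.8%, differences of -16.6, -20.5 and 27.4, 1435 bp and 898 bp. With an overlap of 0.5 of the narrower peak required (6818) they were 13.4%, H3K9me3 17.5%, difference 10.99, and 968 bp. With the central 500 bp of each H3K27ac peak the differences were -15.9, -17.9 and 14.1. With only SOX9, SOX6 and H3K9me3 peaks above their median scores the shares were 1.36%, 1.40% and 13.8% and the differences -13.1, -15.6 and 8.92. Without chromosomes 7, 9, 11 and 16 (4584) they were 11.5%, 2.81%, 3.23%, 16.4%, and differences of -20.3, -23.4 and 10.8. With H3K27ac peaks at most 1 kb apart joined (2716), an alternative added after the data had been seen, they were 7.26%, 2.91%, 3.50%, SOX differences of -25.2 and -28.7, and 3436.5 bp. The unmarked share thus ranged from 1.32% to 28.7% with the thresholds of the lists, and the SOX9 and SOX6 shares of unmarked peaks were highest when weak H3K27ac peaks were left out; the cause was not tested. The absence of H3K4 methylation rests on peak calls from 1 library per mark, whose depth was not used here. No paired analysis was possible because each antibody has 1 library, so the libraries share a single replicate number.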

Other observations

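The unmarked peaks lay nearer to H3K9me3 than other acetylated regions did, also where they did not meet it. The nearest H3K9me3 peak was a median of 7971 bp from unmarked peaks and 20193.5 bp from marked peaks, and 26.6% of the former and 11.6% of the latter had one within 1 kb. Among peaks that did not meet H3K9me3 the medians were 13710 bp for 4950 unmarked and 23700 bp for 41391 marked peaks, with 8.57% and 4.64% within 1 kb. This split was added after the values were seen. An H3K4me1 peak within 1 kb on both sides was found at 48 of the 1212 unmarked peaks with H3K9me3 (3.96%, 3% to 5.21%) and at 304 of the 4950 without it (6.14%, 5.51% to 6.84%). H3K9me3 and a SOX factor together met 32 unmarked peaks (0.519%), against 2.34% of all H3K27ac peaks and 2.59% of marked peaks. Of these 32, 31.3% lay beyond 12500 bp from H3K4 methylation and the median score was 168.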
